A study of Mus musculus with 16 samples.

Results

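The 10 genes described here are genes of blood vessel growth and of the vessel lining: Vegfa, Kdr, Flt1, Nrp1, Angpt2, Tek, Tie1, Pecam1, Cdh5 and Eng. They were chosen by name, 10 of the 16535 genes that the arrays' RefSeq accessions name, and all 10 had a named probe. Of these, 8 passed the filter on dim probes and are among the 12298 genes tested; Tek and Tie1 did not. The mice bore tumours grown under the skin from Hepa1-6 cells, a hepatoma line of the mouse, and were sampled 10 days after inoculation. The first group is a tumour fraction enriched by density gradient in inflammatory cells that had entered the tumour (8 samples, called infiltrating cells), and the second is blood (8 samples). Each sample was labelled with Cy5 and hybridised with Cy3-labelled blood RNA of untreated C57Bl/6 mice (called the reference), 1 array per sample, with no dye swap. The labels give C57Bl/6 and female for samples and reference, but the treatment text calls the inoculated mice athymic. Infiltrating cells and blood were stored and extracted with different kits, and the fraction was enriched, not sorted.

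VEGF-A, the protein of Vegfa, is a secreted factor that drives the growth of blood vessels. It binds the receptor tyrosine kinases VEGFR2 (Kdr), which carries most of its signal in endothelial cells, and VEGFR1 (Flt1), which binds it tightly and is also made by monocytes and macrophages, with neuropilin 1 (Nrp1) as a co-receptor. Angiopoietin 2 (Angpt2) is a ligand of the receptor TIE2 (Tek), which pairs with TIE1 (Tie1), and Pecam1, Cdh5 and Eng encode an adhesion molecule, the cadherin of endothelial junctions and a co-receptor of the TGF-beta family. Platelets and leukocytes also carry the Pecam1 protein.

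The windows before the start sites of the ligand and of its 2 kinase receptors are shown as the sequence context of these genes. Each line gives the 250 bases before a RefSeq start (GRCm38.p6, minus strand for all 3), with capitals for ACGTG or GCGTG on either strand, the core letters bound by hypoxia-inducible factors. The windows are chr17:46032378-46032627 for Vegfa, chr5:147726012-147726261 for Flt1 and chr5:75978456-75978705 for Kdr.
Vegfa: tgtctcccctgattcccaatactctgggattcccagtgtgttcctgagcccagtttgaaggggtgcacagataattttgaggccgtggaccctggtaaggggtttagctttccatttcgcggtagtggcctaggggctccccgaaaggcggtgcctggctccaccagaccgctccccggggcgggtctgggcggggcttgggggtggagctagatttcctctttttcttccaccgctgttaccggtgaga
Flt1: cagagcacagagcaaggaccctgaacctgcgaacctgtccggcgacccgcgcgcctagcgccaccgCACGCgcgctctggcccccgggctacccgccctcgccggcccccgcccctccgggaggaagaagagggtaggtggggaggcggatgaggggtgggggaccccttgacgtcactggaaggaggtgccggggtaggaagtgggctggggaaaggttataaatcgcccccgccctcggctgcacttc
Kdr: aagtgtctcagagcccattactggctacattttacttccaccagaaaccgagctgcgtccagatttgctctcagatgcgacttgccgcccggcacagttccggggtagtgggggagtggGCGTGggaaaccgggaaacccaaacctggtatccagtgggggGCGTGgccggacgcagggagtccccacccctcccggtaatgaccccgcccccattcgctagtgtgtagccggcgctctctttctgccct
The core letters occurred 0 times in the Vegfa window, 1 time in the Flt1 window and 2 times in the Kdr window. Of 32851 windows of the same length, 38.6% held them. GGAA, the core of ETS factor motifs, was searched on both strands too and occurred 6, 4 and 4 times in these windows, and 93.4% of all windows held it. A second Vegfa start has a window of its own with 2 of the hypoxia cores. That window, chr17:46025164-46025413 on the minus strand, lies downstream of the first start. Windows were found for 7 of the 10 genes; Angpt2, Pecam1 and Cdh5 had none.

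Before the results, 2 features of the arrays bear on every ratio. In Cy5, 51.1% to 65.8% of probes were well above background on arrays of infiltrating cells, against 24.8% to 36.3% on blood arrays. The spike-in controls were brighter there too, with Cy5 medians of 4450 to 15310 units per array, against 2785 to 5648 on blood arrays. This is a scale of 1.41 log2. Raw Cy5 levels printed below are not corrected for it, so they do not set the groups on 1 scale. The labels give the same kind of reference in Cy3 on all 16 arrays, but the Cy3 signal differed between the groups of arrays. Of 19916 probes that were not well above background in either channel on any blood array, 3417 were well above it in Cy5 on all 8 arrays of infiltrating cells, and 702 of these (20.5%) were also well above it in Cy3 on all 8. Over the 3417 probes the median Cy3 signal was 5.59% of the Cy5 signal. Vegfa is one of the genes concerned, so its ratio on these arrays is set against a Cy3 signal that the blood arrays do not show. The part of this signal in the ratios was not tested.

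The second feature concerns the background correction. On 5 of 16 arrays, spots with an outlying local background disturbed the correction (normexp). The median Cy5 signal after it was 94.8 to 837 on infiltrating-cell samples 896, 897 and 898, against 34 to 80.7 on the other 5, and 67 and 97.5 on blood samples 889 and 891, against 17.8 to 21.9 on the other 6. Replacing the flagged local backgrounds by the median of their array brought the medians to 33.5 to 98.2 on arrays of infiltrating cells, against 17.4 to 21.8 on blood arrays. The results below keep the correction as it was planned. The replacement was chosen after results had been seen, and its values stand beside each call that it changes.

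The log2 ratios of infiltrating cells and of blood to the reference, and their difference, address how the genes differ between cells from the tumour and cells in circulation. None of the 8 tested genes was called (an adjusted p under 0.05 in limma, by Benjamini-Hochberg over every probe tested, with a change of 2-fold or more) in any of the 3 comparisons. Over all genes, 19.5% were called in infiltrating cells against the reference, 0.748% in blood against the reference and 23.9% in infiltrating cells minus blood. At any fold, 8 of 8, 2 of 8 and 7 of 8 had an adjusted p under 0.05, where 76.4%, 49.8% and 74.9% of all genes did. With the outlying backgrounds replaced, 1 gene (Angpt2) was called in infiltrating cells against the reference and 2 (Angpt2 higher, Pecam1 lower) in infiltrating cells minus blood, where 23.2% and 27.6% of all genes were. Leaving out the 5 disturbed arrays gave the same counts of 1 and 2 (22.8% and 27.9% of all genes), and so did leaving out sample number 897 or 898 alone. Of all 12298 genes, 2625 and 3145 were called without 897, and 2520 and 3033 without 898. Leaving out 889 gave 1 and 0 members, where 2392 and 2970 of all genes were called. Vegfa, Angpt2 and Nrp1 were well above background on 0 of 8 blood arrays in either channel, and Eng on 0 of 8 in Cy5, and they passed the filter through the arrays of infiltrating cells. The blood ratios of Vegfa, Angpt2 and Nrp1 are thus background over background, held near 0 by the offset of 50, and their differences and p-values below carry no measured level of blood. In the difference of the groups the median of the 8 genes was -0.04 log2, beside 0.08 over all genes. The 2 groups did not overlap for 4 of the 8 genes (Vegfa, Kdr, Angpt2 and Pecam1), as for 42.2% of all genes.

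**Figure D1:**
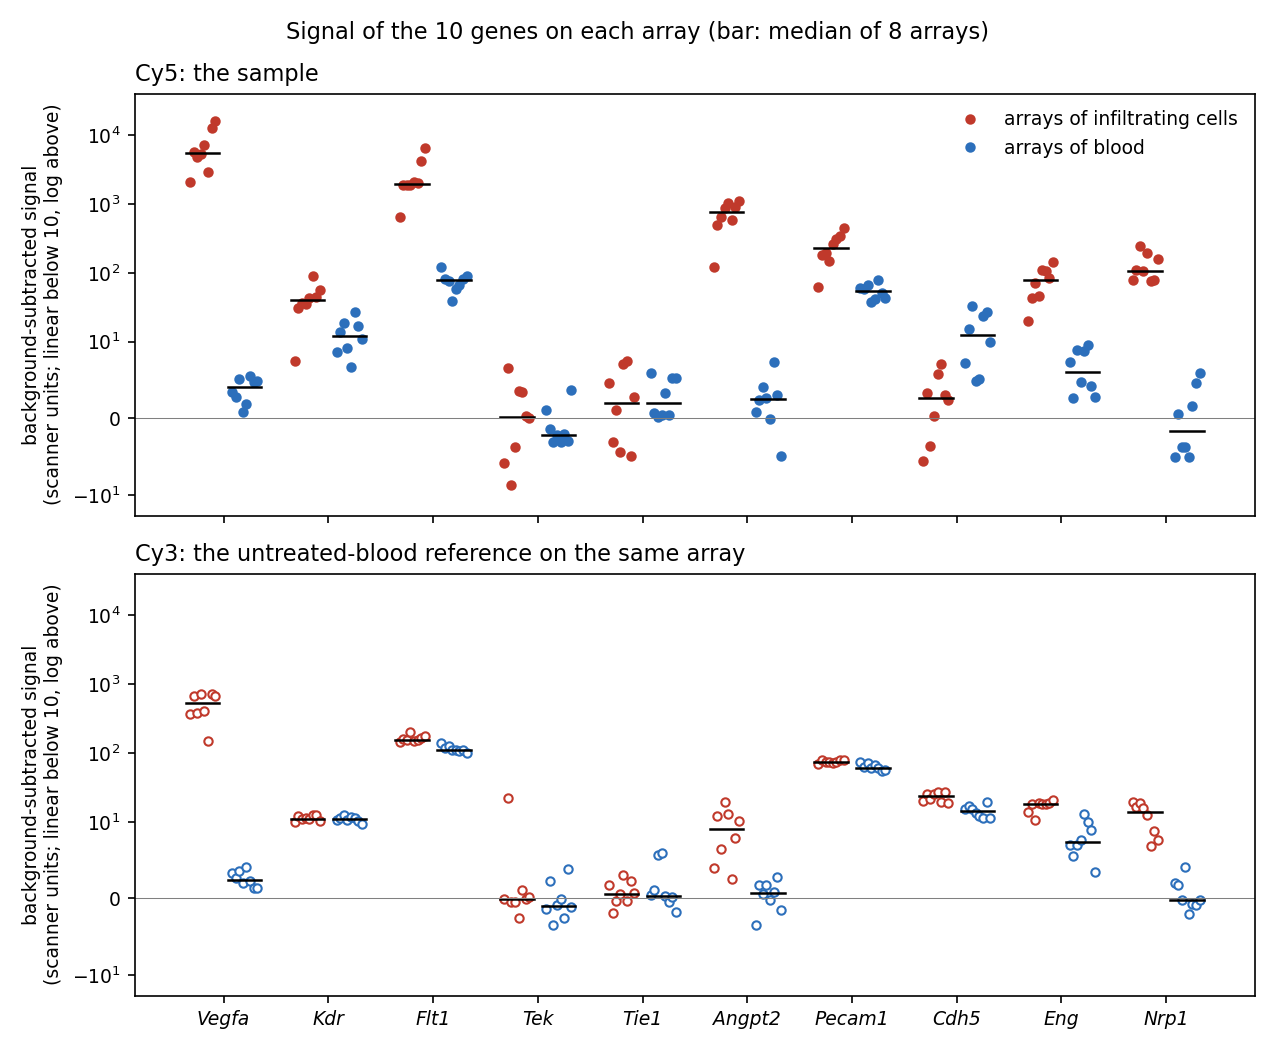
Background-subtracted Cy5 (top, filled) and Cy3 (bottom, open) signal of the 10 genes on each of 8 arrays of infiltrating cells (red) and 8 of blood (blue), in scanner units, with the median as a bar; the axis is linear below 10 and logarithmic above. Vegfa lay at 2057 to 15873 in Cy5 in infiltrating cells against 0.83 to 5.55 in blood, and its Cy3 signal differed between the 2 sets of arrays too.

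Vegfa, the ligand, was well above background in infiltrating cells and not in blood. In scanner units, its Cy5 signal in infiltrating cells was 2057 (lowest), 5491 (median) and 15873 (highest) (8 of 8 arrays well above background), against 0.83, 4.08 and 5.55 in blood (0 of 8). Every infiltrating-cell sample was above every blood sample. After loess, scaling of the channels between arrays and a floor at the lowest signal well above background, infiltrating cells were at least 9.90-fold higher than blood in Cy5. The Cy3 signal was 151 to 714 on the arrays of infiltrating cells, against 1.3 to 4.14 on those of blood, a bound of at least 6.89-fold between the reference on the 2 sets of arrays. These 2 bounds are single-channel values set between arrays, and are open to dye bias and to the scaling of arrays against each other.

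The Vegfa ratio is far smaller than its Cy5 difference. The log2 ratio to the reference was 0.36 to 0.93 in infiltrating cells, with a mean of 0.59 ± 0.18 (SD, n = 8), against -0.03 to 0.12 in blood, with a mean of 0.04 ± 0.04 (SD, n = 8). The fitted difference was 0.54 ± 0.07 (SE; limma adjusted p = 1.6e-06), below 2-fold, against a blood ratio at background in both channels. A second Vegfa probe gave 0.65, and another, at 1.0, passed both limits. On Cy5 alone, the fitted difference was 3.54 after quantile normalisation and 5.19 when arrays were scaled on spike-in controls, both against blood signals at background, so the floor bound above is the measure of this difference. Under the second scaling, chosen after the Cy3 difference was seen, 69.8% of all genes were called.

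Flt1, the receptor shared by vessels and macrophages, had Cy5 signal on every array of both groups. It ranged over 637, 1949 and 6382 units (lowest, median, highest) in infiltrating cells, against 38.5, 78.3 and 121 in blood, with no overlap. The reference read 144 to 203 on the arrays of infiltrating cells, against 101 to 138 on those of blood. The log2 ratio averaged 0.50 ± 0.30 (SD, n = 8) in infiltrating cells and 0.11 ± 0.25 (SD, n = 8) in blood, and here the groups overlapped. The difference was 0.39 ± 0.13 (SE; limma adjusted p = 0.0119), below 2-fold, and a second probe gave -0.15 ± 0.09. The difference was 0.14 on quantile-normalised Cy5 and 2.73 on spike-in scaled Cy5, so its size depends on the scaling.

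Kdr, the main signalling receptor, was dim. Its Cy5 signal was 7.51, 39.7 and 89.9 in infiltrating cells, well above background on 7 of 8 arrays, against 6.69, 12.3 and 27.2 in blood, on 2 of 8. The log2 ratio was -0.19 to -0.01 in infiltrating cells, against 0.01 to 0.29 in blood. The groups did not overlap and the difference was -0.22 ± 0.05 (SE; limma adjusted p = 0.00135), below 2-fold. The median of infiltrating cells was thus higher than that of blood in raw Cy5 signal, which is not scaled between arrays, and lower in ratio. The Cy5 difference was -0.63 ± 0.09 after quantile normalisation (limma adjusted p = 3.2e-06) and 0.16 ± 0.39 with spike-in scaling (limma adjusted p = 0.732), so its direction depends on the scaling.

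Nrp1, the co-receptor, was well above background in Cy5 on 8 of 8 arrays of infiltrating cells, at 76.6, 108 and 241 units, against 0 of 8 of blood, at -5.03, -1.64 and 5.91. The floor bound was at least 1.28-fold. The log2 ratios overlapped, and the difference was 0.12 ± 0.09 (SE; limma adjusted p = 0.245). A second probe gave 0.30 ± 0.09. Quantile-normalised Cy5 gave 0.43 ± 0.14 and spike-in centring 0.09 ± 0.30, neither called, and spike-in scaled Cy5 gave 1.1 ± 0.35, which was called, as were 69.8% of all genes; blood was at background in each.

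**Figure D2:**
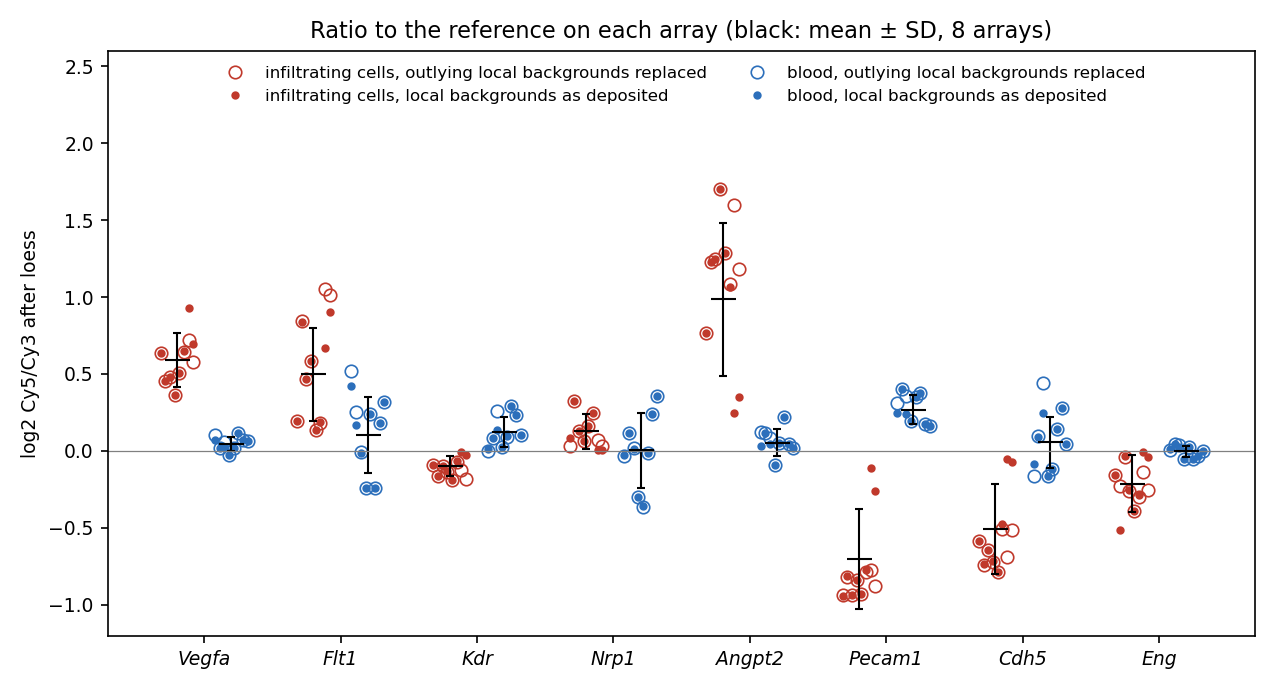
Log2 Cy5/Cy3 after loess on each array for the 8 tested genes, infiltrating cells (red) beside blood (blue), with local backgrounds as deposited (filled) and with outlying ones replaced (open), and the mean ± SD of the filled points in black. For Angpt2 and Pecam1 the infiltrating-cell samples 897 and 898 lie near 0 as filled points and with the other samples as open points.

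Angpt2, the TIE2 ligand, was well above background in Cy5 in infiltrating cells and not in blood. Its Cy5 signal was 120, 760 and 1096 units in infiltrating cells (8 of 8 arrays), against -4.92, 2.50 and 7.32 in blood (0 of 8). In Cy3 it was well above background on 4 of 8 arrays of infiltrating cells and on 0 of 8 of blood. The bound between the Cy5 signals of infiltrating cells and blood was at least 2.35-fold. The log2 ratio on the arrays of infiltrating cells was 0.77, 1.23, 1.25, 1.70, 1.29, 1.07, 0.25 and 0.35 for samples 889, 890, 891, 893, 894, 896, 897 and 898, against -0.09 to 0.22 in blood. The 2 low values are those of samples 897 and 898, whose correction was disturbed, and they became 1.60 and 1.18 with the outlying backgrounds replaced. The difference was 0.93 ± 0.16 (SE; limma adjusted p = 6.4e-05), just below 2-fold. With the backgrounds replaced it was 1.19 ± 0.10 (limma adjusted p = 2.4e-10), which was called, again against blood at background in both channels.

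Tek and Tie1, the receptors of the angiopoietin axis, were dark in Cy5. Neither was well above background in Cy5 on any of the 16 arrays. Tek ranged from -8.70 to 6.60 units in infiltrating cells, against -3.07 to 3.72 in blood. Tie1 ranged from -4.89 to 7.43 in infiltrating cells, against 0.10 to 5.97 in blood. They were not tested.

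Pecam1 was measured on every array of both groups. Its Cy5 signal was 61.3, 229 and 448 units in infiltrating cells, against 37.3, 55.3 and 77.9 in blood, and the reference read 70.1 to 79.9 on the arrays of infiltrating cells, against 55.1 to 74.9 on those of blood. The log2 ratio was -0.94, -0.81, -0.93, -0.84, -0.93, -0.77, -0.11 and -0.26 in infiltrating cells (samples 889, 890, 891, 893, 894, 896, 897 and 898), against 0.16 to 0.40 in blood. All 8 samples were below every blood sample, and the values nearest 0 are again samples 897 and 898. The difference was -0.97 ± 0.11 (SE; limma adjusted p = 6.1e-07), just short of 2-fold. It was -1.15 ± 0.06 (limma adjusted p = 3.2e-14) with the backgrounds replaced, which was called. Its direction depends on the scaling: median centring gave 0.38, spike-in centring -0.08 and spike-in scaled Cy5 0.38, while quantile-normalised Cy5 gave -1.33. The medians over all genes in these settings were 1.46, 1.0, 1.78 and 0.25, and 0.08 as planned, each above the Pecam1 value.

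Cdh5 and Eng, junction cadherin and co-receptor, were dim. The main Cdh5 probe was well above background in Cy5 on 0 of 8 arrays of infiltrating cells, at -5.60, 2.70 and 7.08 units, against 4 of 8 of blood, at 4.91, 12.6 and 32.9. The log2 difference was -0.56 ± 0.11 (SE; limma adjusted p = 2.3e-04), below 2-fold, and the Cy5 difference was -0.84 ± 0.18 after quantile normalisation and -0.16 ± 0.44 with spike-in scaling. A second Cdh5 probe did the reverse: it was well above background on 7 of 8 arrays of infiltrating cells and on 0 of 8 of blood, with a difference of 0.14 ± 0.08. Eng was well above background on 8 of 8 arrays of infiltrating cells, at 19.7, 77.8 and 143 units, against 0 of 8 of blood, at 2.66, 6.07 and 9.58. Its log2 difference was -0.21 ± 0.07 (SE; limma adjusted p = 0.0139), and its direction turned under median centring (0.05).

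**Figure D3:**
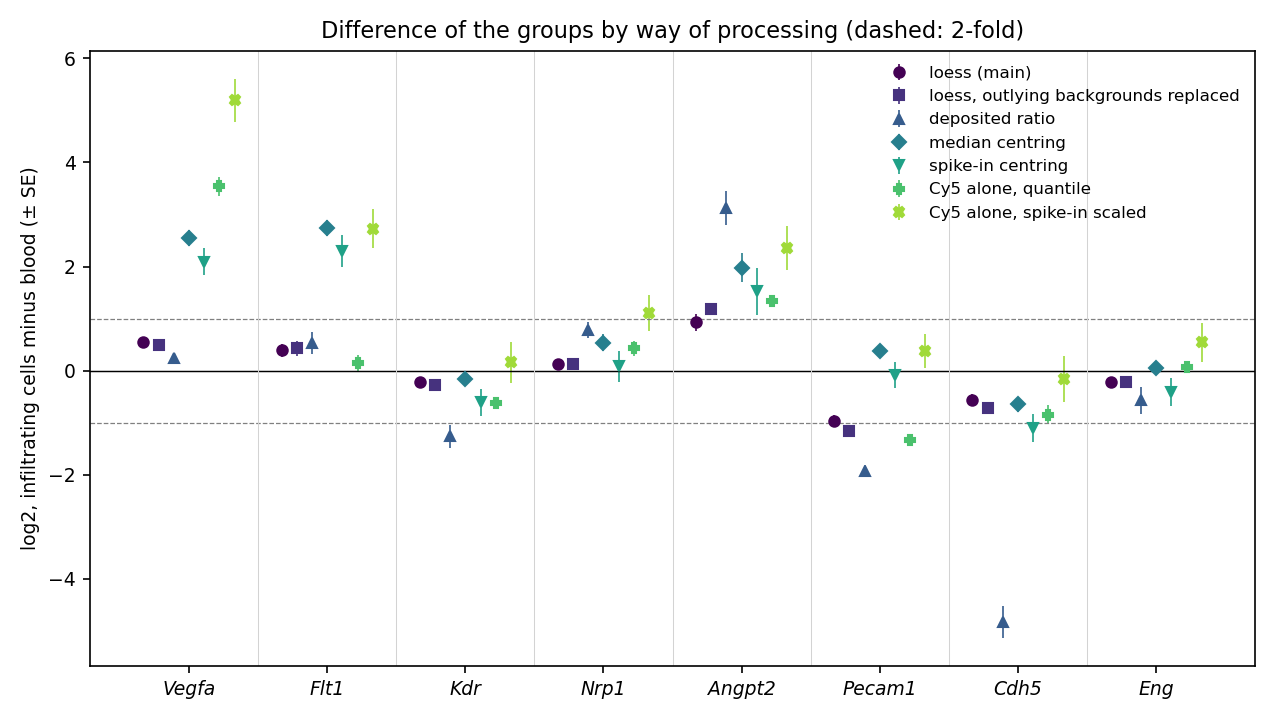
Log2 difference, infiltrating cells minus blood (± SE), of the 8 tested genes under 7 ways of processing, with dashed lines at 2-fold. Vegfa runs from 0.24 (deposited ratio) to 5.19 (spike-in scaled Cy5), and Pecam1 changes sign, from -1.92 to 0.38.

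Across these processings Angpt2 was positive in each of the 7 plotted, from 0.93 to 3.12, and Vegfa and Nrp1 were positive too, from 0.24 to 5.19 and from 0.09 to 1.1. All were against blood at background, so these signs carry no measured level of blood. Nrp1 lay below the median over all genes under median centring (0.54 against 1.46), spike-in centring (0.09 against 1.0) and spike-in scaled Cy5 (1.1 against 1.78). It lay above that median in the other settings plotted. Flt1 was positive as well on its main probe, from 0.14 to 2.75, while its second probe gave -0.15 as planned. Flt1 lay below the median over all genes on quantile-normalised Cy5 (0.14 against 0.25), and Vegfa did with the deposited ratio (0.24 against 0.42). Both lay above it in the other settings plotted. Cdh5, on its main probe, was negative in all 7, from -4.82 (deposited ratio) to -0.16. That probe was well above background in Cy5 on 0 of 8 arrays of infiltrating cells. The second Cdh5 probe went the other way as planned (0.14). Kdr, Pecam1 and Eng changed sign among the 7, while the median over all genes ran from 0.08 to 1.78. The numbers of members called were 3 under median centring, 4 under spike-in centring, 4 with the deposited ratio, 3 with quantile-normalised Cy5 and 4 with spike-in scaled Cy5, where the shares of all genes called were 62.7%, 55.9%, 57%, 36.2% and 69.8%. Against the reference, infiltrating cells had 3, 4 and 3 members called under median centring, spike-in centring and the deposited ratio, where 59%, 47.9% and 46.8% of all genes were called.

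Against the reference, infiltrating cells had log2 ratios of 0.99 ± 0.15 for Angpt2 (SE; limma adjusted p = 2.8e-04), 0.59 ± 0.06 for Vegfa, 0.50 ± 0.10 for Flt1 and 0.13 ± 0.05 for Nrp1. They had -0.70 ± 0.10 for Pecam1 (SE, limma adjusted p = 2.0e-04), -0.51 ± 0.09 for Cdh5, -0.21 ± 0.06 for Eng and -0.10 ± 0.04 for Kdr. These are the values of the main probes. The second probes of Flt1 and Cdh5 differed, at -0.01 ± 0.08 and 0.16 ± 0.07. The other probes of Vegfa (0.65 and 0.98) and of Nrp1 (0.20) had the sign of the main ones. With the outlying backgrounds replaced, Angpt2 was at 1.26 ± 0.09 (limma adjusted p = 1.8e-08), which was called.

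In blood, no gene of the set was called against the reference. Pecam1 had a log2 ratio of 0.27 ± 0.04 (SE; limma adjusted p = 7.4e-05) and Kdr of 0.12 ± 0.04 (SE; limma adjusted p = 0.0263), both far below 2-fold. The other 6 lay between -0.003 and 0.11.

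**Figure D4:**
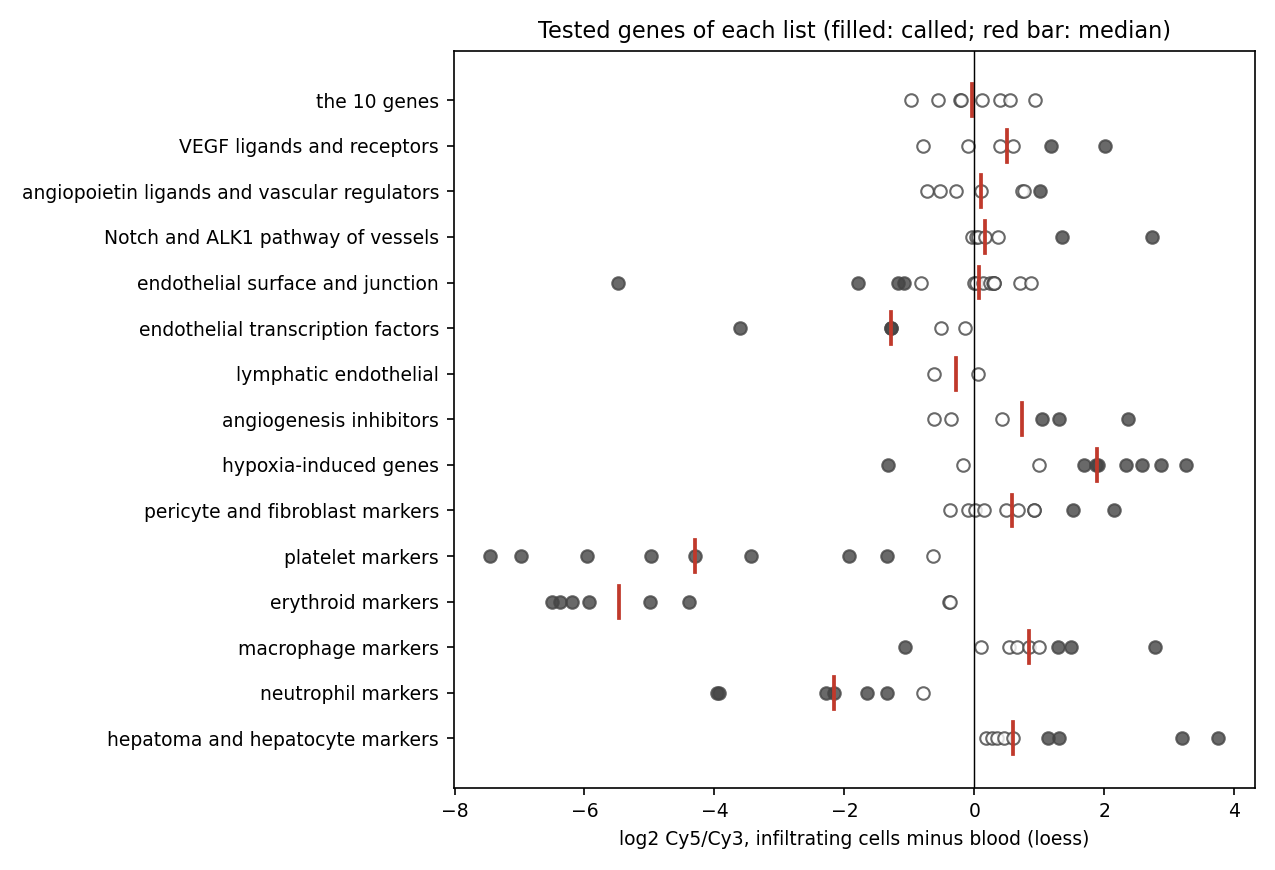
Log2 difference, infiltrating cells minus blood, of the tested genes of each list (filled: called; open: not called), with the list median in red. Genes named for hypoxia lie mostly above 0 (median 1.89) and platelet and erythroid genes mostly below (medians -4.30 and -5.46).

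Other genes of these pathways were chosen with earlier results known and are described by counts. Of 6 tested VEGF ligands and receptors outside the set, 2 rose in infiltrating cells minus blood, none fell, and the median was 0.50 (of all genes, 12.1% rose and 11.8% fell). The ligand Vegfc (log2 2.01 ± 0.16, SE; limma adjusted p = 3.5e-09) and the co-receptor Nrp2 (log2 1.19 ± 0.16) rose. Their single-channel Cy5 bounds, open to dye bias and to the scaling between arrays, were at least 5.08-fold and at least 5.03-fold. Of 7 tested angiopoietin and vessel regulators, Angptl4 rose (log2 1.0 ± 0.12, SE; limma adjusted p = 6.3e-07). Of 7 tested Notch and ALK1 pathway genes, the ligand Jag1 rose by 2.73 ± 0.28 log2 and the receptor Bmpr2 by 1.35 ± 0.09, with Cy5 bounds of at least 8.82-fold and at least 9.86-fold. Of 6 tested inhibitors of vessel growth, 3 rose, with Col18a1, the precursor of endostatin, at 2.36 ± 0.13 log2 and a Cy5 bound of at least 11.6-fold. Vegfc, Nrp2, Jag1, Bmpr2 and Col18a1 were well above background in Cy5 on 0 of 8 blood arrays. So was the inhibitor Adamts1, which also rose, while the inhibitor Timp3, which rose too, was well above it on 2 of 8. The differences and p-values of the genes at 0 of 8 are against blood Cy5 at background, and carry no measured level of blood.

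Among hypoxia-induced genes, of 10 tested, 7 rose and 1 fell (8 and 1 with the backgrounds replaced), with a median of 1.89. The 1 that fell was Car9, at -1.33, chosen after its value was seen. Bnip3, a mitophagy factor, rose by 3.25 ± 0.18 log2 (SE, limma adjusted p = 2.9e-11), and the glycolytic enzymes Ldha and Pgk1 by 2.87 ± 0.13 and 2.58 ± 0.07. All 3 were well above background in Cy5 on 8 of 8 blood arrays. Egln3, which also rose, was well above it on 1 of 8, so its rise is against blood near background.

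Markers of vessels and of other cells moved beside these genes. Of 14 tested endothelial surface and junction genes, 0 rose and 4 fell (1 and 5 with the backgrounds replaced). The largest fall was that of Vwf, which encodes von Willebrand factor of endothelium and platelets (-5.48 ± 0.12 log2, SE, limma adjusted p = 3.5e-17). Its Cy5 signal was 268 to 933 units in infiltrating cells, against 2208 to 6377 in blood. Of 5 tested endothelial transcription factors, 0 rose and 3 fell, led by Tal1 (-3.60 ± 0.38), which blood cell precursors also use. The factor Fli1 fell by 1.28 and the surface genes Icam2, Esam and Mmrn2 by 1.8, 1.18 and 1.08. In raw Cy5 these genes, unlike Vwf, had higher medians in infiltrating cells (2458, 1010, 738.5 and 120.7 units) than in blood (531, 295.8, 124.5 and 54.97). Raw Cy5 is not corrected for the brighter spike-in controls. On spike-in scaled Cy5 the differences of these genes were 0.72, 0.38, 0.70 and 0.0098, none called. The falls of Fli1, Icam2, Esam and Mmrn2 did not hold under median centring. The values there were 1.39, 0.80, 0.96 and 0.03, each below the median of 1.46 over all genes. Their direction thus depends on the scaling. On spike-in scaled Cy5, 4 of the 14 surface genes rose and 1 fell (median 0.61), and 1 of the 5 factors rose and 1 fell. In that setting 8095 of all 12298 genes rose and 486 fell, with a median of 1.78. Of all 19 surface genes, 16 were well above background in Cy5 on at least 1 array of infiltrating cells, against 7 in blood, and of all 9 factors 6, against 5 in blood. The other 6 genes, the endothelial factors Erg, Sox7 and Sox17 and the surface genes Adgrl4, Clec14a and Sele, were well above it on 0 of 8 arrays of infiltrating cells, as were Tek and Tie1. Of 9 tested platelet markers 8 fell, and Itga2b, their integrin, read 18.2 to 41.4 units in infiltrating cells against 717 to 1534 in blood. Of 8 tested erythroid markers 6 fell, and of 7 tested neutrophil markers 6 fell, with S100a8 at -3.96 ± 0.23. Of 10 tested pericyte and fibroblast markers 2 rose (4 with the backgrounds replaced), the matrix genes Dcn (2.15 ± 0.17) and Col1a1 (1.51 ± 0.13). Neither of the 2 tested lymphatic endothelial genes was called. Of 9 tested macrophage markers 3 rose and 1 fell (5 and 0 with the backgrounds replaced); the one that fell, Lyz2, at -1.07, was at 1.55 under median centring. The receptor Csf1r read 1926 to 10090 units in infiltrating cells against 59.6 to 146 in blood. Of 9 tested hepatoma and hepatocyte markers 4 rose, and Afp read 67320 to 336500 units in infiltrating cells against 30.8 to 73.7 in blood. Among the macrophage and hepatoma markers that rose, Mrc1, C1qc, Foxa2 and Alb were well above background in Cy5 on 0 of 8 blood arrays. Their rises carry no measured level of blood. The summed Cy5 signal of the 10 hepatoma and hepatocyte genes was 166800 to 934600 units in infiltrating cells, against 30.6 to 197 in blood. That of the 9 platelet genes was 9457 to 51160 in infiltrating cells, against 38860 to 103200 in blood. That of the 9 macrophage genes was 85150 to 330900 in infiltrating cells, against 17960 to 39310 in blood. Fewer cells of a type and less RNA per cell cannot be told apart in these samples, and the part of these cells in the values above was not tested.

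Among infiltrating-cell arrays, the ratio of Vegfa was most like that of Ccdc59, Cope and Ndrg3 (Pearson r 0.99, 0.98 and 0.98 over 8 arrays). The likeness is in the pattern over the arrays only. The mean log2 ratios of these genes to the reference were -1.08, -1.65 and -0.67, against 0.59 for Vegfa. Among the genes most like Flt1 were Capza1 and M6pr (r 0.94 and 0.93). Within the set, Vegfa and Angpt2 had r = -0.925 over the 8 arrays and Pecam1 and Cdh5 0.94; samples 897 and 898, with the disturbed correction, stand apart in these ratios and the arrays share their normalisation, so these correlations are a description without a test.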

How the data were processed

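Two-colour Agilent mouse arrays were measured for 8 samples of infiltrating cells and 8 of blood, on 4 slides of 4 arrays, each slide holding 1 group, so slide and group cannot be told apart. The deposited files were written by Feature Extraction version 10.5.1.1, per the file headers, while version 9.1.3.1 stands in the submitters' processing notes. They hold median spot and local background intensity for both channels and, as a log10 value, the ratio Cy5/Cy3, which per the file headers follows the program's own background subtraction and dye normalisation. The deposited values of the series equal these log10 ratios (largest difference 0; column medians 0).

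From the intensities, log2 ratios were computed in limma 3.58.1 under R 4.3.3 with normexp (offset 50) and loess within arrays, as planned; medians replaced the planned means where means were not in the files used here. Control spots and the 87 to 153 outlier spots per array were left out, and no spot was saturated. Probes (41174) were named through RefSeq accessions (23374 with 1 symbol, 17800 with none). Testing needed a signal well above background in Cy5 on 4 or more arrays of a group, or in Cy3 on 8 (26494 probes). Each gene stands for its tested probe with the highest mean log2 intensity. limma's test was run on each group against 0 and between groups, after a test on simulated data. Under spike-in centring and spike-in scaling the ordinary t-test of the linear fit was used, without limma's moderation of the variance. The reference has no spread of its own here, and p-values measure only the spread between these samples, which may be technical, since the labels number the samples without saying that each is a separate animal; their number limits the precision. Printed Cy5 and Cy3 levels are the program's background-subtracted signals.

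The members and the 14 gene lists were chosen with earlier results of these data known. The text names all 10 members, up to 4 called genes of each list by size of change with groups that do not overlap, the 3 genes most like Vegfa and Flt1 (1 of these is not reported here), and Afp, Itga2b, Csf1r and Vwf; other list genes named with a value were chosen after it was seen. 3 alternatives were added after results were seen: replacement of flagged local backgrounds, leaving out the 5 arrays disturbed by them (median Cy5 raised over 1.3 times) and Cy5 scaled on spike-ins. The way spike-in controls centre or scale an array was also settled after results were seen; earlier versions called 4 members each time. Sample numbers were not used as pairs, since the labels do not say what they mark and not every same-number correlation was over 0.1 (-0.165 to 0.2).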

Additional observations from a re-analysis of the deposited data

Results flagged for a closer look

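The difference between infiltrating cells and blood passed an adjusted p of 0.05 in limma for 7 of the 8 tested genes, although none reached 2-fold: 0.54 log2 for Vegfa, -0.22 for Kdr, 0.39 for Flt1, 0.93 for Angpt2, -0.97 for Pecam1, -0.56 for Cdh5 and -0.21 for Eng. Over all genes, 74.9% passed the same limit. The blood ratios of Vegfa and Angpt2 were at background in both channels. The sign of Kdr, Pecam1 and Eng depends on the scaling.

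One sample stood apart from its group by the gap to its neighbour: Tek had a log2 ratio of -0.59 in infiltrating-cell sample 890, next to -0.08, a gap of 0.777 of the range. Its Cy3 signal was 22.1 units there, and in Cy5 no array had Tek well above background. This was 1 of 20 groups of values examined, and chance marks about 1 in 20.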

How the results depend on the processing

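Calls of the 10 genes depend on the scaling and on the background correction. Members called in infiltrating cells against the reference and in infiltrating cells minus blood were 0 and 0 as planned, 1 and 2 with outlying local backgrounds replaced, 1 and 2 without the 5 disturbed arrays, 3 and 3 under median centring, 4 and 4 under spike-in centring, 3 and 4 with the deposited ratio, and, in infiltrating cells, 1 within slide 1 (Angpt2 at 1.23) and 0 within slide 2 (Angpt2 at 0.74). Of all 12298 genes, 2761 were called within slide 1 and 1885 within slide 2. In the difference the members called were 3 on quantile-normalised Cy5 and 4 on spike-in scaled Cy5. Leaving out each sample number gave 0 to 1 and 0 to 2 members, where 2312 to 2625 and 2832 to 3145 of all genes were called. In blood no member was called under any alternative run. Angpt2 without samples 897 or 898 was 1.04 or 1.02 and Pecam1 -1.06 or -1.05 in the difference. The cause of the changes was not tested.

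All genes called in infiltrating cells, blood and their difference (2392, 92 and 2935 as planned) were 7260, 894 and 7711 under median centring, 5885, 1172 and 6877 under spike-in centring, and 5759, 956 and 7006 with the deposited ratio. In blood they were 53 without background correction, 61 and 152 within its 2 slides. In the difference they were 4455 on quantile-normalised Cy5 and 8581 on spike-in scaled Cy5. Leaving out each sample number gave 2312 to 2625, 75 to 105 and 2832 to 3145. Rises made up 50.6% of calls in the difference as planned, 95.7% under median centring and 89.5% under spike-in centring. The median over all genes moved to 1.2, -0.16 and 1.46 under median centring, to 0.67, -0.24 and 1.0 under spike-in centring, and in the difference to 0.42 with the deposited ratio.

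Direction turned as follows. Under median centring, against the reference, Pecam1 was 0.26 and Eng 0.088 in infiltrating cells, and Flt1 -0.41, Pecam1 -0.11 and Eng 0.040 in blood; in the difference Pecam1 was 0.38, Eng 0.048, Icam2 0.80, Esam 0.96, Mmrn2 0.030, Fli1 1.39, Lyz2 1.55 and Csf3r 0.014. Under spike-in centring Flt1 was -0.49, Pecam1 -0.19 and Cdh5 -0.074 in blood, and in the difference Icam2 was 0.35, Esam 0.50, Fli1 0.93 and Lyz2 1.1. On spike-in scaled Cy5 the difference of Kdr was 0.16, Pecam1 0.38, Eng 0.54, Icam2 0.38, Esam 0.70, Mmrn2 0.0098, Fli1 0.72 and Lyz2 0.52, and on quantile-normalised Cy5 Eng was 0.071. In blood, Eng (-0.0033) was 0.013 with the deposited ratio, 0.0072 without background correction, 0.0084 within slide 3 and -0.0106 to 0.0040 over the fits that leave out a sample number (above 0 without 893, 896 or 897). Nrp1 (0.0041) was -0.0027 without background correction, -0.049 within slide 3, -0.049 with the mean of its probes, and -0.047 to 0.056 over those fits (below 0 without 890, 897 or 898).

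With the sample number as a replicate block 2935 genes were called in the difference, as without it; 4 of 8 pairs correlated over 0.1 and 2 of 8 matched their own number best. No slide holds both groups, so no within-slide difference exists. Signals near background limit what Tek, Tie1, Kdr, Cdh5 and Eng can show, and on blood arrays also Vegfa, Angpt2 and Nrp1.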
